A study of Mus musculus with 2 samples.

Results

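The 206 genes described here are those that the deposited gene table lists under a noncoding RefSeq transcript and that had a combined copy number of at least 50 in the uterus, out of 14678 genes in the table. A copy number is the number of sequence tags counted for a gene in a library, and the combined copy number is its sum over both libraries. Of 538 genes listed under a noncoding transcript, 209 reached 50 copies, and the 18S ribosomal RNA Rn18s, Hoxa11as and Rps4y2 were left out by name. The members were chosen by their combined copy number, so their levels are given as a description. The members nearest the threshold were 11 genes with 50 to 54 copies, among them A730017L22Rik with 27 copies in Dox+ and 23 in Dox- and Speer5-ps1 with 27 in each. The 6 genes just under it held 45 to 49 copies, among them Snhg10 with 25 and 21, Tslp with 22 and 25 and 1700001L05Rik with 31 and 15.

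Both libraries came from double transgenic VEGFtetO/tetO/beta-AKtg/wt female mice, in which tet operator sequences stand in the promoter of the Vegfa gene and a tetR-Krab repressor is driven by the β-actin promoter in all tissues. Dox+ females, which the labels call VEGF-normal (wild type) although they carry both transgenes, ate doxycycline chow, which takes the repressor off the promoter. Dox- littermates, labelled VEGF-repression, were taken off doxycycline after weaning, so that removal of the drug and repression of Vegfa cannot be told apart. All were 9 to 10 weeks old, were mated with VEGFtetO/tetO males and were collected at gestation day 2.5, before implantation. RNA of 3 uteri was pooled for each condition, and 1 digital gene expression library was sequenced from each pool, so no difference below has a replicate check. Vegfa, the repressed gene, had 247 copies in Dox+ and 125 in Dox-, which was 1.93-fold lower (95% interval 1.55 to 2.41). Intervals here are exact Clopper-Pearson intervals and cover counting error only.

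Of the clean tags, 74.1% were counted for a gene in Dox+ (4437506 tags) and 72.2% in Dox- (4218459 tags). Each of the 18 uterine tissue markers were measured, from Foxa2 with 35 and 34 copies to Col1a1 with 23017 and 33696. Among them 10 of 18 passed the call rule given below (55.6%, beside 32.0% of all genes), 4 higher in Dox- and 6 lower. Markers of 1 cell type did not all differ alike: of the endothelial markers, Cdh5 had 446 and 216 copies and Pecam1 243 and 253, and of the epithelial markers, Epcam had 467 and 821, Krt8 1330 and 1481, Krt18 675 and 856 and Foxa2 35 and 34, with only Cdh5 and Epcam called. The leukocyte marker Ptprc had 49 and 130 copies, and the muscle markers Des, Acta2 and Myh11 had 4647 and 2578, 4225 and 2786, and 4609 and 3169. Of the markers of other tissues, the haemoglobin gene Hba-a1 had 26 copies in Dox+ and 114 in Dox-, and the fat cell gene Adipoq 157 and 78. Their part in the differences below was not tested, and in whole uterus fewer cells of a type and less RNA per cell cannot be told apart.

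Noncoding RNAs act without being translated. Long noncoding RNAs such as Xist and Meg3 are transcribed, spliced and polyadenylated like messenger RNAs, and they are known as regulators of chromatin and transcription, as scaffolds of nuclear bodies and as carriers of small RNAs. Host genes of small nucleolar RNAs (snoRNAs) and microRNAs hold these small RNAs in their introns or exons, and many long noncoding RNAs lie antisense to, or share a promoter region with, a protein-coding gene that acts in development.

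The name noncoding held for only a portion of the 206 genes. RefSeq (GRCm38.p6) had an entry for 200 of them, of which 87 were long noncoding RNA genes, 24 pseudogenes, 2 snoRNAs, 1 microRNA and 1 ribosomal RNA. The remaining 85 were protein-coding genes, and all 85 had a coding transcript in RefSeq. The table lists a single transcript for each gene, and for these genes it is a noncoding one. Srsf3 and Srsf7, splicing factors, and Atf5, a stress-responsive transcription factor, are examples. For some of the 85, among them 6030408B16Rik (Smim41) and 1500011K16Rik (Mtln), RefSeq does not list that noncoding transcript under the gene. Counts for these 85 genes are therefore counts of genes with a coding transcript, and they are described apart from the rest.

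Among the long noncoding RNAs are the hosts of snoRNAs, whose starts often carry a run of C and T letters. The 60 bases around the annotated start, 40 before it and 20 from it on, are shown 5′ to 3′ from RefSeq (GRCm38.p6) for 6 of the 12 hosts with a promoter sequence, picked from those with the longer runs, with the longest run of C and T that comes within 5 bases of the start in capitals.

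Snhg12, chr4:132308638-132308697, plus strand: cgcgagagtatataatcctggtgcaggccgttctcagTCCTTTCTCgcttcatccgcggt

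LOC100616095 (Snhg18), chr15:32244643-32244702, minus strand: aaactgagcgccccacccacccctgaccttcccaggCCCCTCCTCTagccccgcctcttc

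Snhg1, chr19:8723447-8723506, plus strand: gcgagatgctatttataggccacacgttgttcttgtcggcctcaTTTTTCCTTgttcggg

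Gas5, chr1:161035126-161035185, plus strand: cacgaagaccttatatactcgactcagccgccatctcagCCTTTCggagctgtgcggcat

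Snhg8, chr3:123508317-123508376, minus strand: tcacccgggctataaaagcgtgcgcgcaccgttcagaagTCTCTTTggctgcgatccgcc

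Snhg7, chr2:26640225-26640284, minus strand: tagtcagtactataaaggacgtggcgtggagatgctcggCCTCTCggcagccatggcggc

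The run was 9 bases long in Snhg12 and Snhg1, 10 in Snhg18, 7 in Snhg8, and 6 in Gas5 and Snhg7. In the 6 hosts not shown it was 6 or shorter, at 6 in Snhg17, 5 in Snhg3, 4 in Snhg16, 3 in Rian and 2 in Snhg14 and Snhg20. A run of at least 8 was found at the start of 3 of the 12 snoRNA host members with a promoter sequence (25%), of 10.6% of the 66 long noncoding members with one and of 12.5% of all genes of the table. The letters TATAAA, searched on both strands from 250 bases before to 50 after the start, stood in 4 of 14 promoters of the snoRNA hosts (28.6%), in 16% of those of long noncoding members and in 7.78% of those of all genes in the table.

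Another set of starts is shown because each faces the start of a protein-coding gene that differed between the libraries in the same direction as the noncoding RNA. In these the first transcribed base is in capitals.

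Foxl2os, chr9:98955291-98955350, minus strand, facing Foxl2: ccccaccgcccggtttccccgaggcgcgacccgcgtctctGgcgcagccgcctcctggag

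A930005H10Rik, chr3:115888040-115888099, minus strand, facing Dph5: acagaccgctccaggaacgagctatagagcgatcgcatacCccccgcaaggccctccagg

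C630043F03Rik, chr4:72201204-72201263, plus strand, facing Tle1: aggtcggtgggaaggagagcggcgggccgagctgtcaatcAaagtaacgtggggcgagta

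In RefSeq the closest starts of Foxl2os and Foxl2 were 297 bases apart. Those of A930005H10Rik and Dph5 were 53 bases apart and those of C630043F03Rik and Tle1 351 bases. A930005H10Rik has 3 promoter sequences there. The one shown has the longest run of C and T at its start and may not be the closest to Dph5.

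A further set holds mature microRNAs that lie inside members, shown because the host's tags are the only measurement of these loci here. Among members other than protein-coding genes, 8 held 26 mature microRNAs on either strand within their bounds, each with a different seed. Among the 8 is Mir3091, itself a microRNA gene, and the miR-374c sequences within Ftx lie on the opposite strand. The seed, bases 2 to 8, is in capitals, and the sequences are from RefSeq (GRCm38.p6).

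miR-770-5p, in Meg3: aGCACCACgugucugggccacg

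miR-370-3p, in Rian: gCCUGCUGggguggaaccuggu

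miR-675-5p, in H19: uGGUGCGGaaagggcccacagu

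miR-22-3p, in 2210403K04Rik (Mir22hg): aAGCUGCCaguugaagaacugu

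miR-374b-5p, in B230206F22Rik (Ftx): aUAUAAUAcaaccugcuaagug

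miR-199a-3p, in Dnm3os: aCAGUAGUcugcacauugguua

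miR-214-3p, in Dnm3os: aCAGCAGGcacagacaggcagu

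The mature microRNAs themselves carry no poly(A) tail and were not measured.

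The 206 genes held 0.833% of the clean tags in Dox+ (0.826 to 0.841) and 0.848% in Dox- (0.841 to 0.856). Without the 85 protein-coding genes the shares were 0.507% and 0.530%. The tags were held unevenly, since the 10 members with the most copies held 41.8% of the members' tags in Dox+ and 43.1% in Dox-. In Dox+ 91 members had 100 or more copies and in Dox- 95. The lowest copy number of a member was 13 in Dox+ and 12 in Dox-, so every member was seen in both libraries.

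A gene was called different when the two-sided Audic-Claverie test on its copy numbers, adjusted over all genes of the table, gave a false discovery rate below 0.05 and the fold change was at least 1.5. This test compares the 2 libraries and not the conditions. By this rule 76 of the 206 members were called (36.9%), 38 higher and 38 lower in Dox-. Among all 10584 genes with at least 50 copies, 32.0% were called, 16.4% higher and 15.6% lower. The median log2 ratio of Dox- over Dox+ was -0.02 for the members and 0.03 for all genes. Single members ranged from -2.36 to 2.21 on the log2 scale.

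By class, 38 of the 87 long noncoding RNAs were called (43.7%), 21 higher and 17 lower. Pseudogenes were called in 13 of 24 cases (54.2%), 7 higher and 6 lower. Protein-coding members were called in 23 of 85 (27.1%), 10 higher and 13 lower. Copy number differed between these classes as well, with a median combined copy number of 130 for long noncoding RNAs, 124 for pseudogenes, 253 for protein-coding members and 281 for all genes. Among genes with 50 to 199 copies, 28 of 60 long noncoding members were called (46.7%), beside 35.5% of all genes in that range. At 200 copies or more 10 of 27 were called (37.0%), 8 higher and 2 lower, beside 29.9% of all genes. The shares are descriptions of the 2 libraries, and their difference from the background was not tested.

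**Figure D1:**
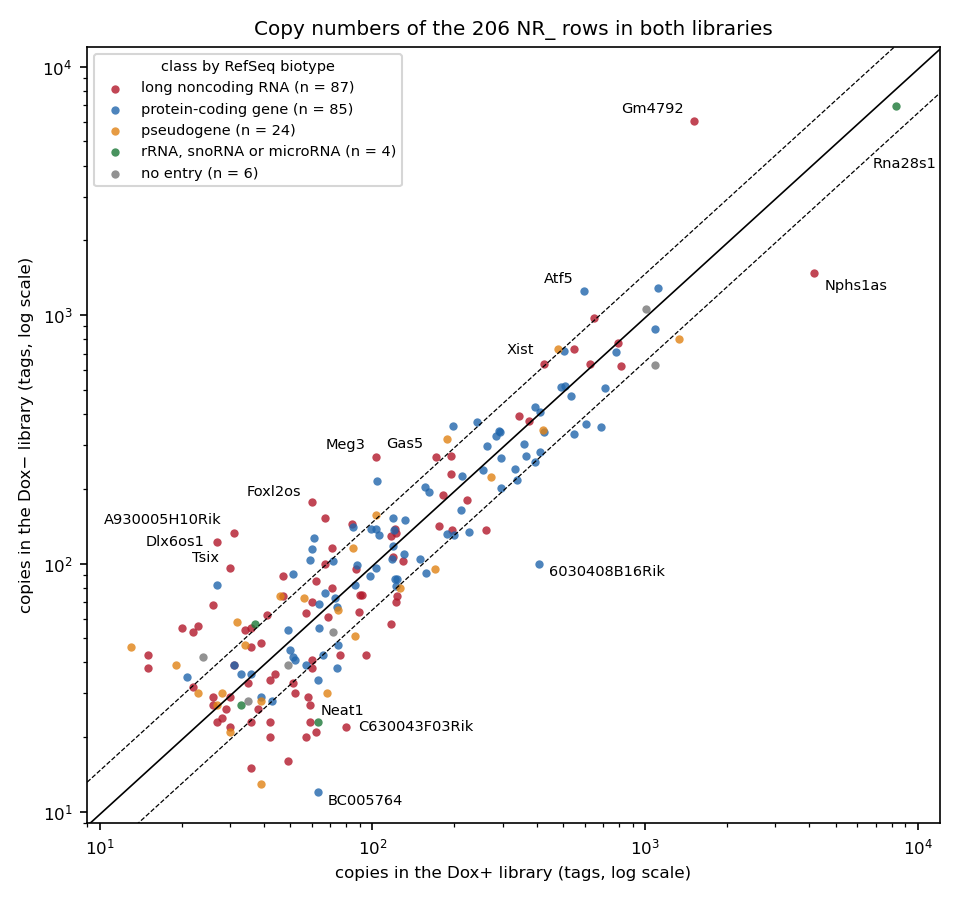
Copy numbers of the 206 genes in the Dox+ library (x axis, tags, log scale) and the Dox- library (y axis, tags, log scale), 1 point per gene, coloured by RefSeq class. The solid line marks equal shares of the clean tags and the dashed lines a fold of 1.5; Gm4792 with 1512 and 6028 copies and Nphs1as with 4156 and 1474 stand farthest from the line among the genes with the most copies.

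**Figure D2:**
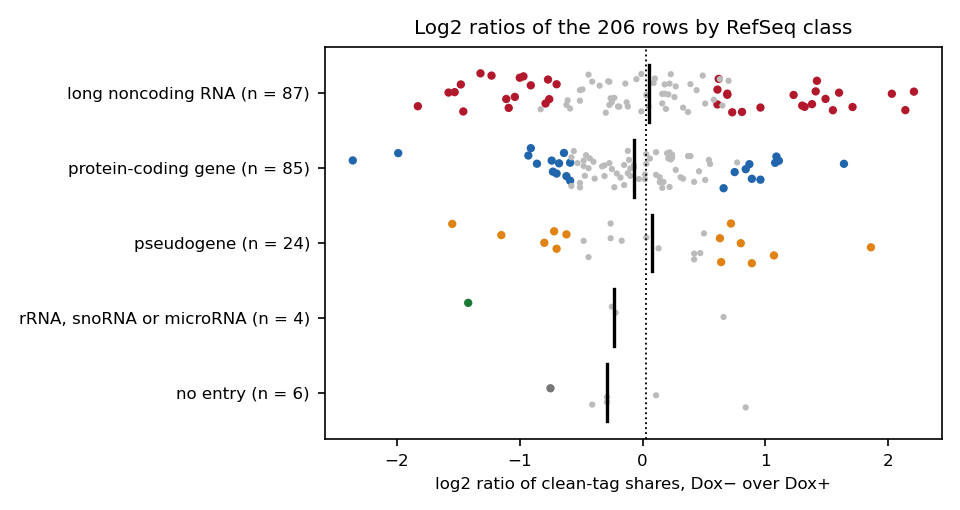
Log2 ratio of Dox- over Dox+ (x axis) for each of the 206 genes, in rows by RefSeq class, with called genes in colour and the others in grey. Black bars mark the class medians, which run from -0.29 for genes with no entry to 0.08 for pseudogenes, and the dotted line marks the median of all genes, 0.03.

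The members with the most copies split between stable and strongly different genes. Rna28s1, the 28S ribosomal RNA, had 8322 copies in Dox+ and 6976 in Dox-, a ratio of 0.859 (0.832 to 0.886) that did not reach the fold threshold. It is encoded in many repeated copies and lacks a poly(A) tail, and it alone held 16.7% of the members' tags in Dox+ and 14.1% in Dox-. Gm4792, a long noncoding RNA of unknown role, had 1512 copies in Dox+ and 6028 in Dox-, 4.08-fold higher in Dox- (3.86 to 4.32). On NCBIM37 it lies at chr10:93756410-93761448 on the minus strand, where the older GENCODE annotation called it protein-coding and RefSeq now lists it as a long noncoding RNA. Nphs1as, antisense to the podocyte gene nephrin (Nphs1), had 4156 and 1474 copies, 2.75-fold lower in Dox- (2.59 to 2.92). Its 3428 bases at chr7:31247183-31250610 lie wholly inside Nphs1 on the opposite strand. The authors report sense and antisense tags of genes apart, but do not state whether the copy numbers used here hold sense tags alone. The tags of Nphs1as and those of Nphs1 may therefore be mixed. These 2 long noncoding RNAs were the 2 with the most tags after the ribosomal RNA, and they differed in opposite directions.

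Below them, Srsf3 had 1115 copies in Dox+ and 1286 in Dox-, and Srsf7 had 1085 and 881; neither was called. The translationally controlled tumour protein pseudogene Tpt1p, at 1007 and 1058 copies, did not differ beyond counting error, with a ratio of 1.08 (0.986 to 1.17). Because it resembles its parent gene closely, its assigned tags are uncertain. Atf5 rose from 596 copies to 1252, 2.15-fold (1.95 to 2.38). 4632415L05Rik, a transcribed pseudogene, had 1333 and 803 copies, 1.62-fold lower in Dox- (1.48 to 1.77), and A130040M12Rik, without a RefSeq entry, had 1083 and 630, 1.68-fold lower (1.52 to 1.85). 2900097C17Rik, now Norad, a cytoplasmic RNA that binds Pumilio proteins, had 647 and 972 copies, 1.54-fold higher (1.39 to 1.70).

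Among members higher in Dox-, the largest fold belonged to Dlx6os1 (Evf2), which runs antisense through the Dlx5 and Dlx6 homeobox locus. It had 27 copies in Dox+ and 122 in Dox-, 4.63-fold higher (3.03 to 7.31). A930005H10Rik followed with 31 and 133 copies, 4.39-fold higher (2.95 to 6.72), and then Gm4792. Mx1, an interferon-induced antiviral GTPase whose allele is inactive in many laboratory strains and which RefSeq lists as a pseudogene, had 13 and 46 copies, 3.62-fold higher (1.93 to 7.31). Tsix had 30 and 96 copies. The protein-coding Dtnb, dystrobrevin beta, had 27 and 82, 3.11-fold higher (1.99 to 5.0), and Foxl2os had 60 and 177, 3.02-fold higher (2.24 to 4.12). The last of the 10 were 1700052K11Rik with 15 and 43 copies, 5033406O09Rik with 20 and 55 and BC064078 with 26 and 68, between 2.68-fold and 2.94-fold higher. Apart from Gm4792 these genes had fewer than 200 copies in each library, so their intervals are wide.

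Among members lower in Dox-, BC005764 (Plppr3, protein-coding) had 63 copies in Dox+ and 12 in Dox-, 5.13-fold lower (2.74 to 10.4). 6030408B16Rik, now the protein-coding Smim41, had 408 and 100, 3.98-fold lower (3.19 to 5.01). C630043F03Rik had 80 and 22, 3.55-fold lower (2.19 to 5.98). Next came 1700048O20Rik with 49 and 16 copies, the pseudogene Gm3219 with 39 and 13, A630089N07Rik with 62 and 21, 4933404O12Rik with 57 and 20, Nphs1as, Snord118 with 63 and 23, and A030009H04Rik (Rnf227) with 59 and 23, which was 2.50-fold lower (1.52 to 4.25). Nphs1as had by far the most tags of these.

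The spliced RNAs of snoRNA hosts are known to be degraded rapidly when translated, while the intronic snoRNAs guide modification of ribosomal RNA. Of 14 members on this list, 2 rose and 0 fell in Dox- (14.3%, beside 32.0% of all genes), with a median log2 ratio of 0.17 and a range from -0.51 to 0.96. Gas5, whose gene on NCBIM37 chr1:162964553-162968670 holds 9 annotated snoRNAs, had 171 copies in Dox+ and 269 in Dox-, 1.61-fold higher (1.33 to 1.96). D7Ertd715e, now Snhg14, the imprinted host that runs antisense to Ube3a, had 47 and 89, 1.94-fold higher (1.35 to 2.82). Snhg12 had 550 and 729 copies, a ratio of 1.36 (1.21 to 1.52) whose interval left out equality but whose fold was under the threshold. Snhg18 had 628 and 633 copies, Snhg1 374 and 374, Snhg6 344 and 393, and 9430008C03Rik (Snhg17) 223 and 181. Among them only Snhg6 had an interval that left out equality, at 1.01 to 1.36, and its fold too was under the threshold. For Snhg1, host of 8 annotated snoRNAs, the interval of the ratio was 0.885 to 1.19. The intervals of the other 7 hosts included equality: Snhg3 with 121 and 138 copies, Rian with 122 and 133, Snhg8 with 117 and 129, Snhg4 with 90 and 75, 1810032O08Rik (Snhg16) with 60 and 41, 2810008D09Rik (Snhg20) with 44 and 36 and Snhg7 with 26 and 29. Counted instead by annotation, 17 members held a snoRNA on their own strand, of which 1 was called higher and 1 lower, with a median of -0.01. The higher one was Gas5. The lower one was 2410004N09Rik (Epb41l4aos), with 42 copies in Dox+ and 20 in Dox-. It was meant for the list above, but was missed because the list spelled its symbol differently.

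Of the proteins that package snoRNAs, 11 were measured with at least 50 copies, of which 4 rose and 0 fell, with a median log2 ratio of 0.33. This share of 36.4% was near the 32.0% of all genes. Nop58, a core protein of box C/D snoRNPs, had 250 and 440 copies, and Dkc1, the pseudouridine synthase of box H/ACA snoRNPs, had 40 and 70. Nolc1, a chaperone of snoRNPs, had 177 and 310 copies and the assembly ATPase Ruvbl2 366 and 591. Those with the most copies, Nop10 with 1688 and 1805, Nhp2l1 with 1091 and 1337 and Ruvbl1 with 1029 and 1158, were not called.

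The snoRNAs on the short RNA list went opposite ways. Snord118, the U8 snoRNA needed for maturation of 28S and 5.8S ribosomal RNA, had 63 copies in Dox+ and 23 in Dox-, 2.67-fold lower (1.64 to 4.52). Snord13, the U13 snoRNA of the 18S pathway, had 37 and 57 copies, a ratio of 1.58 (1.03 to 2.46) that was not called. Neither RNA has the poly(A) tail that the library preparation selects for.

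**Figure D3:**
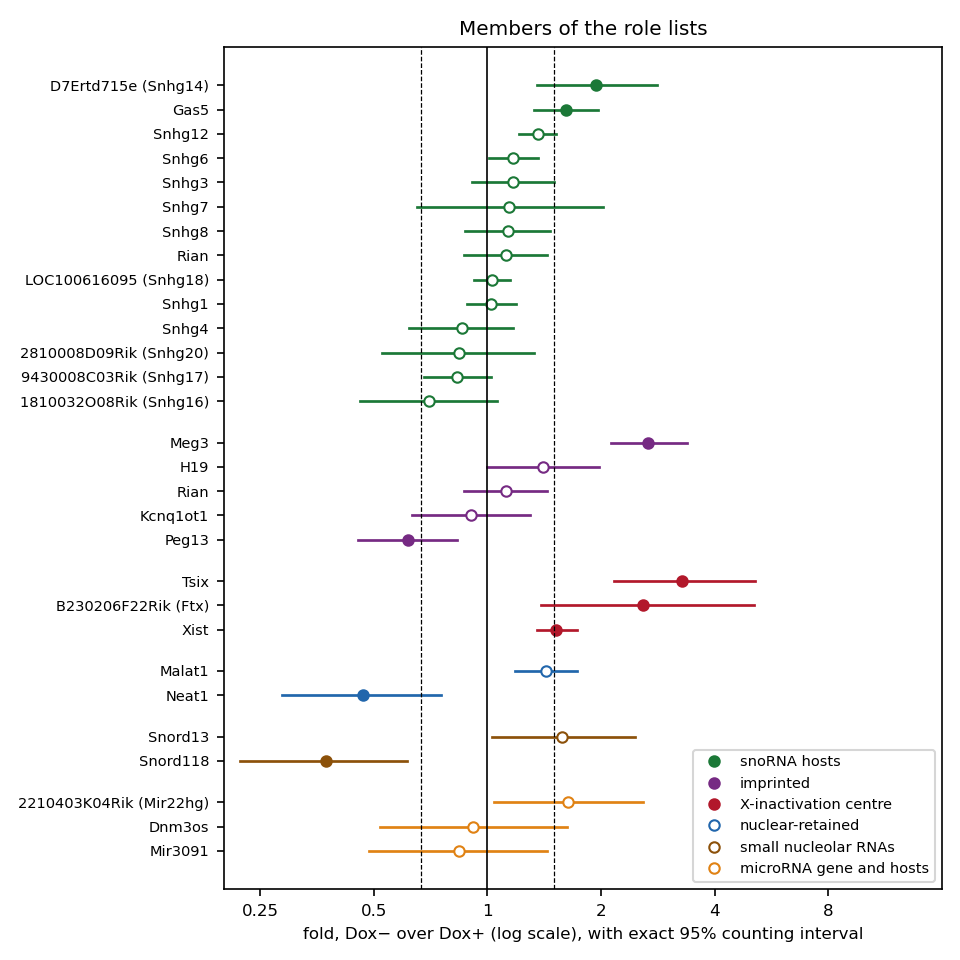
Ratio of Dox- over Dox+ (x axis, log scale) with the exact 95% counting interval for each member of the lists of snoRNA hosts, imprinted RNAs, X-inactivation centre RNAs, nuclear-retained RNAs, small nucleolar RNAs and microRNA genes and hosts. Filled points were called and open points were not, dashed lines mark a fold of 1.5 either way, and Rian stands in 2 lists; the 3 X-inactivation centre RNAs all lie to the right of 1, while the snoRNA hosts lie around it.

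Among the imprinted noncoding RNAs, which are expressed from 1 parental allele, the neighbours Meg3 and Rian did not differ alike. Meg3, a maternally expressed RNA of the Dlk1-Dio3 region, had 103 copies in Dox+ and 268 in Dox-, 2.66-fold higher (2.12 to 3.38). Rian, transcribed in the same direction 32218 bases downstream of Meg3 on chromosome 12 (NCBIM37), had 122 and 133 copies, a ratio of 1.12 (0.867 to 1.44). The 2 intervals did not overlap, so the ratios of Meg3 and Rian differed beyond counting error. H19, the maternally expressed partner of Igf2, had 62 and 85 copies and was not called, and Igf2 itself had 190 and 187. Peg13, a brain-enriched imprinted RNA inside Trappc9, had 123 and 74 copies, 1.62-fold lower in Dox- (1.21 to 2.20). Trappc9 had 143 and 106, a ratio of 0.759 (0.585 to 0.983) that was not called. As a ratio the interval of Peg13 was 0.455 to 0.829, so the intervals of Peg13 and Trappc9 overlapped. Kcnq1ot1, which silences the imprinted genes around Kcnq1 in cis, had 69 and 61 copies, with a ratio of 0.905 (0.631 to 1.3).

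Of 18 imprinted protein-coding genes with at least 50 copies, 2 rose and 4 fell in Dox-, with a median log2 ratio of -0.36. This share of 33.3% was near the 32.0% of all genes. Asb4 had 25 and 61 copies and Peg10 22 and 44. Among the genes near Kcnq1ot1, the cell cycle inhibitor Cdkn1c had 326 and 206 copies and Tssc4 253 and 117. Mest, with 245 and 142 copies, and Impact, with 203 and 89, also fell. The 3 with the most copies, Gnas with 2291 and 2935, Cd81 with 2077 and 1601 and Dcn with 1146 and 1407, were not called.

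The 3 members on the list of X-inactivation centre RNAs were all called higher in Dox-, beside 16.4% of all genes. RNAs of the centre under 50 combined copies were not looked at. Xist, which coats the inactive X chromosome in female cells, had 426 copies in Dox+ and 634 in Dox-, 1.52-fold higher (1.35 to 1.73). This lies just past the fold threshold, and the call was lost when library sizes were scaled by TMM or median-ratio factors. Tsix, its antisense regulator, had 30 and 96 copies, 3.28-fold higher (2.16 to 5.12). B230206F22Rik, now Ftx, an activator of Xist, had 15 and 38 copies, 2.59-fold higher (1.39 to 5.08). On NCBIM37 the gene of Tsix covers all 22843 bases of Xist on the opposite strand, so tags of this pair may be mixed as well.

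The nuclear-retained RNAs Malat1 and Neat1, neighbours on chromosome 19, differed from each other. Malat1, an RNA of nuclear speckles, had 195 copies in Dox+ and 272 in Dox-, a ratio of 1.43 (1.18 to 1.73) under the fold threshold. Neat1, the scaffold of paraspeckles, had 59 and 27 copies, 2.13-fold lower in Dox- (1.33 to 3.50), so their intervals did not overlap. Of 13 paraspeckle proteins, 2 rose and 0 fell (15.4%, beside 32.0% of all genes), with a median log2 ratio of 0.22. With TMM or median-ratio factors 1 of the 13 was called. Dazap1 had 76 and 173 copies and Rbm14 73 and 108. Hnrnpk, with 3600 and 3707 copies, and Nono, with 1371 and 1619, were among those with the most copies and were not called.

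No microRNA gene or host was called among the 3 on this list, beside 32.0% of all genes, and all had few copies. 2210403K04Rik (Mir22hg), host of miR-22, had 34 copies in Dox+ and 54 in Dox-, a ratio of 1.63 (1.04 to 2.58). Dnm3os, which carries miR-199a and miR-214 and is antisense to Dnm3, had 29 and 26 copies, and Mir3091 had 33 and 27. Other members also hold microRNAs. Of these, Meg3 and Ftx were called higher, while Rian, H19 and Snhg20 were not called.

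Antisense and opposite-strand transcripts were called in 6 of 11 cases (54.5%, beside 32.0% of all genes), 2 higher and 4 lower, with a median log2 ratio of -0.26. The list was made by gene symbol or description, so RNAs that are antisense by RefSeq type or position but named otherwise were left out. Of such RNAs, Tsix, Snhg14 and C030034L19Rik were called higher in Dox- and 2810025M15Rik lower. The balance of directions therefore holds for this list only. Foxl2os and the transcription factor gene Foxl2 rose together, from 60 to 177 and from 104 to 198 copies, and Foxl2 was 1.95-fold higher (1.53 to 2.50). Msx1as and Msx1, the homeobox gene needed for uterine receptivity, fell together. Msx1as had 117 copies in Dox+ and 57 in Dox-, 2.0-fold lower (1.45 to 2.80), and Msx1 had 1757 and 727, a ratio of 0.424 (0.388 to 0.462). Emx2os had 95 and 43 copies, 2.16-fold lower (1.49 to 3.17), while the homeobox gene Emx2 had 492 and 388, a ratio of 0.808 (0.705 to 0.925) that was not called. The intervals of Emx2os and Emx2 did not overlap.

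Dlx6os1 overlaps Dlx6 by 5235 bases on the opposite strand, so the pair may share tags. Dlx6 had only 3 copies in Dox+ and 13 in Dox-, a ratio of 4.44 (1.22 to 24.3) that was not called. The remaining antisense RNAs among those with the most copies were not called: C030044B11Rik (Fam120aos) had 92 and 75 copies beside 1846 and 1892 of Fam120a, Kcnq1ot1 had 69 and 61 beside 25 and 25 of Kcnq1, and for Nphs1, the partner of Nphs1as, no value was used here. 2410004N09Rik (Epb41l4aos), with 42 and 20 copies, was 2.05-fold lower (1.18 to 3.69).

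By position, 66 of the 87 long noncoding members were found in the GENCODE annotation of NCBIM37. With both genes at 50 copies or more, 15 had a start facing that of a coding gene within 5000 bases, and in 10 of these pairs both log2 ratios lay on the same side of 0. The pairing depends on the annotation: the starts of Snhg1 and Slc3a2, among the 10, were 127 bases apart there but 9590 in RefSeq. In 3 of the 15 pairs both genes were called, and all 3 went the same way. Besides Foxl2os and Foxl2, A930005H10Rik had 31 and 133 copies and Dph5, a diphthamide synthesis enzyme, 41 and 75, 1.87-fold higher (1.26 to 2.81). C630043F03Rik had 80 and 22 copies and the corepressor Tle1 197 and 87, a ratio of 0.452 (0.347 to 0.585). In A930005H10Rik the noncoding RNA differed more than its partner, since the intervals 2.95 to 6.72 and 1.26 to 2.81 did not overlap. Those of C630043F03Rik and of Tle1 did overlap, at 0.167 to 0.456 and 0.347 to 0.585, so their ratios were not told apart at this depth. Among all genes 32.0% were called, but agreement in other neighbouring pairs was not computed. The counts of facing pairs here and of overlapping pairs below therefore have no background, and coordination of neighbours was not tested.

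Of 12 pairs that overlap on opposite strands, 9 lay on the same side of 0 and 1 had both genes called. That pair, named for this after its values were seen, was C030034L19Rik, with 84 and 144 copies, and Zfp704, with 424 and 676, and both were higher. They overlap by 10223 bases and may share tags, as said of Nphs1as. Pairs of which only the RNA was called, such as Emx2os and Emx2 with starts 55 bases apart, show that the partners did not always differ alike.

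**Figure D4:**
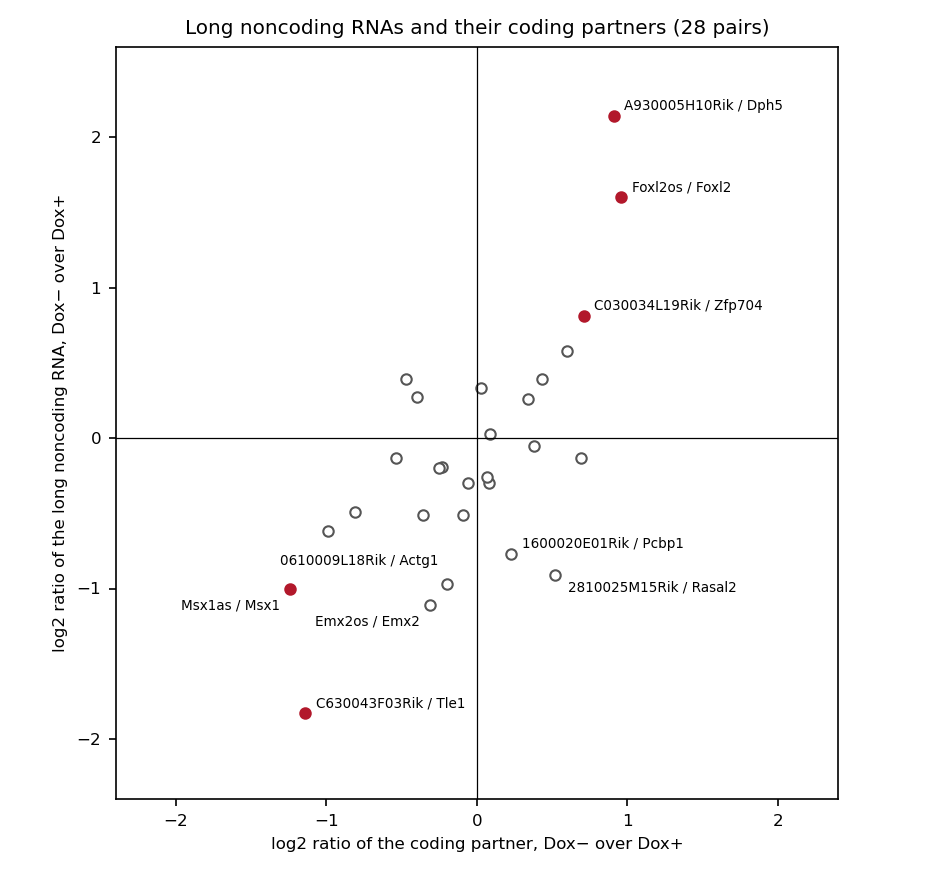
Log2 ratio of Dox- over Dox+ for long noncoding RNAs (y axis) and their coding partners (x axis) in 28 pairs, 1 point per pair with both genes at 50 copies or more, facing starts, overlapping on opposite strands or, for Msx1as, paired by name. Filled points mark the 5 pairs with both genes called, all with both log2 ratios on the same side of 0, and in total 20 of the 28 pairs lay on the same side of 0. The same share in other gene pairs was not computed.

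Of the 25 members on the pseudogene list 13 were called (52.0%, beside 32.0% of all genes), 7 higher and 6 lower, with a median log2 ratio of 0.13. After 4632415L05Rik, the most copies belonged to 6820431F20Rik with 481 and 729, 1.55-fold higher (1.38 to 1.75), Gm17821 with 423 and 345, E030024N20Rik with 187 and 318, 1.74-fold higher (1.45 to 2.10), and Pisd-ps3 with 273 and 223. Pseudogenes can share tags with their parent genes, so these counts are uncertain. Of 69 members with clone or predicted gene names on no other list, 29 were called (42.0%, beside 32.0% of all genes and 35.5% of those with 50 to 199 copies), 13 higher and 16 lower, with a median of -0.19.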

How the data were processed

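Members and gene lists were chosen with earlier results of these data known. The authors made 1 Illumina digital gene expression library per condition, removed adaptor-only, low quality and single-copy tags, matched the rest to mouse reference transcripts (refMrna, mm9) and counted unambiguous tags per gene. CASAVA is named in the submitters' processing notes. The enzyme and the aligner are not given in the sources used here, and the labels mention fragmentation while the methods describe tags. Sense and antisense tags were both collected and are reported apart, but whether the copy numbers used here hold sense tags alone is not stated. The deposited counts are these copy numbers, without normalization. The deposited TPM scales each copy number to the clean tags of its library, was not corrected for transcript length, and stands at 0.01 for genes without a tag. The table also holds the authors' ratios, log2 ratios, P-values and FDR, which were not used.

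From the counts and TPM, 5985925 clean tags were derived for Dox+ and 5844314 for Dox-, and these served as library sizes. Copy numbers were compared by the two-sided Audic-Claverie test with Benjamini-Hochberg adjustment over all 14678 genes. It takes counting error alone, so no P-value is given. A count of 3 or fewer would be set to 3. Alternatives were other scalings, thresholds, Fisher's exact test and edgeR 4.0.16 (R 4.3.3) with assumed coefficients of variation of 0.1, 0.2 and 0.4. The test was checked on simulated data. Computations used scipy 1.17.1 and pandas 2.3.3 in Python 3.11.15, and plots matplotlib 3.10.9. Gene classes, starts and sequences came from RefSeq (GRCm38.p6), matched by gene ID, and other positions from GENCODE on NCBIM37 for 168 members. No coordinates were converted between builds.

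Named in the text are the 10 members with the most copies, the 10 with the largest fold in each direction among called members, all members of the role lists except the antisense (8 with the most copies), pseudogene (5) and clone-name lists, called genes and the 3 with the most copies of each protein list, and genes next to the threshold, except where stated. Some genes that this rule takes, and 1 protein list, are not reported here.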

Additional observations from a re-analysis of the deposited data

How the results depend on the processing

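With 1 library per condition no replicate could be left out, and counting intervals do not cover the spread between animals. No paired analysis was possible because each condition has 1 library. The 76 calls (38 higher, 38 lower) became 31 of 93 members (16 and 15) where 200 combined copies were required, which was 33.3% beside 29.9% of all such genes. Where a fold of 2 was required there were 35 (19 and 16), which was 17.0% beside 14.1% of all genes. Under edgeR with an assumed coefficient of variation of 0.1, 55 were called, with 24 lower, which was 26.7% beside 24.6% of all genes. At 0.2 there were 12 (8 and 4): Gm4792, Dlx6os1, A930005H10Rik, Foxl2os, Meg3, Tsix, Dtnb and Mx1 were higher, and Nphs1as, C630043F03Rik, 6030408B16Rik and BC005764 lower, beside 5.83% of all genes. At 0.4, edgeR called 0 (0 higher, 0 lower) and 6 of the 206 members had an unadjusted p below 0.05, beside 3.7% of all genes. Without a filter on low counts 111 were called, 48 higher and 63 lower. These are out of all genes listed under a noncoding transcript and not left out by name, a wider set than the 206. The share of all genes without the filter was not computed. Without the protein-coding genes, an alternative chosen after seeing the data, 53 of 121 were called (43.8%, beside 32.0% of all genes), 28 higher and 25 lower. The calls numbered 71 with library sizes from the sum of counted tags, 76 with TMM factors and 76 with median-ratio factors, of which 70, 75 and 74 were among the 76. Fisher's exact test called 76. The share of tags in Dox+ and Dox- was 1.12% and 1.18% of counted tags, 0.694% and 0.729% without Rna28s1, and 0.507% and 0.530% without the protein-coding genes. The median log2 ratio of the members lay near 0 throughout, from -0.06 to 0.03, and its sign turned from -0.02 to 0.02 at 200 combined copies, to 0.01 with the sum of counted tags and to 0.03 without the protein-coding genes. No called member turned its direction under the alternatives run. The causes of these changes beyond the fewer genes or stricter thresholds were not tested.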

Other observations

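One symbol among the 206 genes is a date: 6-Sep, which by its gene ID is Septin6, a cytoskeletal GTPase, had 157 copies in Dox+ and 92 in Dox-. The 85 protein-coding members had a C and T run of at least 8 bases at the start in 21.1% of the genes with a promoter sequence, beside 31.7% of the ribosomal protein genes of the table and 12.5% of all its genes.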
